A study of Rattus norvegicus with 6 samples.

Results

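The genes described are the metalloproteinases and their inhibitors in rat dorsal root ganglia, which hold the cell bodies of sensory neurons. They were chosen by symbol, as every gene whose name starts with Mmp, Timp, Adam or Adamts followed by a digit, which gave 55 of the 18696 genes in the authors' table of group averages. The 55 were 16 matrix metalloproteinases (MMPs), 4 tissue inhibitors of metalloproteinases (TIMPs), 16 ADAMs and 19 ADAMTSs. RNA came from SD rats in 2 groups of 3 libraries. In the spared nerve injury (SNI) group, tibial and common peroneal nerves were ligated and cut and the sural nerve was kept, and in the sham group the sciatic nerve and its branches were only exposed. No transgene or drug is named for either group. The sources used here give neither age and sex of the rats nor the time after surgery and the spinal level. The unit is TPM, a length-corrected share of all transcripts in a library. Values per library exist for 8 of the 55 genes, and the other 47 have the authors' group averages, with no error and no test. The labels do not tie libraries to separate animals, and the spread that the p-values below rest on may therefore be technical.

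MMPs are zinc-dependent proteinases that cut collagens, other matrix proteins and many cell surface proteins. They are made as inactive precursors and are held in check by TIMPs, which bind the active site. ADAMs are membrane-anchored relatives, some of which shed the outer part of receptors, growth factors and adhesion proteins, while others have lost the catalytic site and act as adhesion or ligand-binding proteins. ADAMTSs are secreted and include enzymes that cut proteoglycans such as versican and aggrecan and enzymes that trim procollagens. In peripheral nerve and ganglion these proteins are known from matrix turnover, from entry of immune cells and from the release of membrane-bound cytokines after injury, and the gelatinases have been studied in animal models of neuropathic pain.

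The average read counts in the authors' table summed to 18.6 M in SNI and 18.6 M in sham, and the depth of single libraries is unknown. Sensory neuron markers were abundant in both groups, with a sum over 10 markers of 21865 TPM in SNI and 26487 TPM in sham. Markers of several other cell types moved with the comparison. Those of endothelium, satellite glia, and smooth muscle and pericytes lay closer between groups. In each of these lists 0 of 6 markers had a ratio of group averages past 1.5-fold, beside 9.82% of all genes counted. Some still differed in the test of single libraries with limma. It called the 1 endothelial marker tested lower. Of 4 satellite glia markers tested, 1 was called higher and 1 lower. Of 3 tested from smooth muscle and pericytes, 2 were called higher. Of all genes tested, 61.2% were called. The 10 macrophage markers summed to 260.9 TPM in SNI and 115.9 TPM in sham and were all higher on average in SNI. Of 3 tested with limma, 1, Msr1, was called higher. Mrc1 and Cd163 were not called (limma adjusted p = 0.073 and 0.73), and Cd163 averaged 6.20 TPM in SNI and 6.03 TPM in sham. The 9 neutrophil markers summed to 543.6 and 336.8 TPM, with 7 higher. The 4 erythrocyte markers with averages summed to 655.5 TPM in SNI and 199.7 TPM in sham, all higher, and the 6 markers of myelinating Schwann cells summed to 5879 and 10808 TPM, all lower. No marker with an average was at 0 in either group. In such bulk tissue, fewer cells of a type and less RNA per cell cannot be told apart, and the part of these cell populations in the results below was not tested except where a value is given.

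Mmp3, Mmp8 and Mmp13, which stood well apart on average, lie in one cluster on rat chromosome 8. In the RefSeq annotation Mmp13, Mmp12, Mmp1b, Mmp3, Mmp1, Mmp10 and Mmp8 follow one another there as protein-coding genes. Of these 7, Mmp3, Mmp8 and Mmp13 have group averages here. Mmp3 and Mmp8 were higher on average in SNI and Mmp13 was lower. Their 250 bases before the annotated start, from the RefSeq promoter table, are shown because 2 members of the cluster with opposite differences carry the same pair of motifs close to the start. Capitals mark TGANTCA, the site of AP-1 factors such as Jun and Fos, and TATAAA, the TATA box, each searched on both strands.
Mmp3 (GRCr8, chr8:12925031-12925280, + strand): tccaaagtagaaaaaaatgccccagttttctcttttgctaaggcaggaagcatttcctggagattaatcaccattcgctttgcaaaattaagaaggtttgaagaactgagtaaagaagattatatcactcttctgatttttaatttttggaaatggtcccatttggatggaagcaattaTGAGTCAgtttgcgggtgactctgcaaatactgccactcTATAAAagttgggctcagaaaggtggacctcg
Mmp8 (GRCr8, chr8:13008640-13008889, + strand): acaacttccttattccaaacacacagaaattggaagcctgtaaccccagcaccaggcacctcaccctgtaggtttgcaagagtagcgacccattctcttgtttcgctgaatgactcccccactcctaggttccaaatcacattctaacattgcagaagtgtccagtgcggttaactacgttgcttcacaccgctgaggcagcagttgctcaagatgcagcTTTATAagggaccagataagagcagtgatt
Mmp13 (GRCr8, chr8:12782579-12782828, + strand): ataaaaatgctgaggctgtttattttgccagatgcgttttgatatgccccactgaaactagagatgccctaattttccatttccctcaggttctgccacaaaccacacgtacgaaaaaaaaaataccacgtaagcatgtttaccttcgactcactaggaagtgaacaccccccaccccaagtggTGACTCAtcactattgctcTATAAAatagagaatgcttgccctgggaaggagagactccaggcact
In Mmp3 the AP-1 letters begin at position -71 and the TATA box at -32, counted back from the start. In Mmp13 they begin at -66 and -47. Mmp8 holds a TATA box at -30, on the opposite strand, and no TGANTCA in this window. Of 39 of the 55 genes with a promoter in the table, 3 hold TGANTCA (Mmp3, Mmp13 and Adam19) and 8 hold TATAAA, while 6.34% and 12.9% of all 33469 promoters of that length hold them. The first are counts of genes with a match in any of their promoters and the second are shares of single promoters. They are therefore not in like units. These matches describe letters only, and the motifs were chosen with the results known. Jun averaged 202.5 TPM in SNI and 60.1 TPM in sham, and a link between Jun and these genes was not tested.

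Timp1 (NCBI Gene ID 116510), the secreted inhibitor of most MMPs, was the member with the largest tested rise. It stood at 482, 465 and 488 TPM in SNI libraries 1 to 3, against 101, 122 and 109 TPM in sham libraries 1 to 3. The groups lay far apart, and the lowest SNI library was at 465 TPM while the highest sham library was at 122 TPM. The means were 478 ± 11.9 TPM in SNI and 111 ± 10.8 TPM in sham (SD, n = 3 each). On the log2(TPM + 1) scale the change was 2.11 ± 0.07 (SE; limma adjusted p = 1.3e-08). The log2 fold change lay between 2.04 and 2.18 under the 12 other settings and left-out libraries. Of all genes with at least 1 TPM in one group, 0.442% had a ratio of averages as high.

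The other 3 TIMPs were close between groups, with no test. Timp2, which takes part in the activation of proMMP2 at the cell surface, averaged 633 TPM in SNI and 658 TPM in sham and was the most abundant of the 55 genes in both groups. Timp3, which binds to the matrix and also inhibits several ADAMs, averaged 201 TPM in SNI and 217 TPM in sham. Timp4 averaged 11.8 and 11.3 TPM. In sham the order was thus Timp2, Timp3, Timp1 and Timp4, and in SNI Timp1 stood second. Timp1 made up 36.1% of the summed TIMP level in SNI and 11.1% in sham. Summed TPM were 1324 for the 4 TIMPs and 384 for the 16 MMPs in SNI, against 996 and 340 in sham, a TIMP to MMP ratio of 3.45 in SNI and 2.93 in sham. MMPs without group averages are not in these sums, among them Mmp12, which was in the authors' higher list. Without Timp1 the TIMP sum was 846 TPM in SNI and 885 TPM in sham.

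Timp1, Timp3 and Timp4 lie inside synapsin genes in the RefSeq annotation, which are Syn1, Syn3 and Syn2 in that order. The synapsins coat synaptic vesicles in neurons. As no strand is stated for the counting, reads of a TIMP and of its host gene cannot be told apart where they overlap. Syn1 averaged 272 TPM in SNI and 332 TPM in sham, the opposite direction to Timp1. Syn2 averaged 175 and 186 TPM, far above Timp4, so that the Timp4 level may be uncertain. Only whole gene spans were compared, and overlap of exons was not tested.

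**Figure D1:**
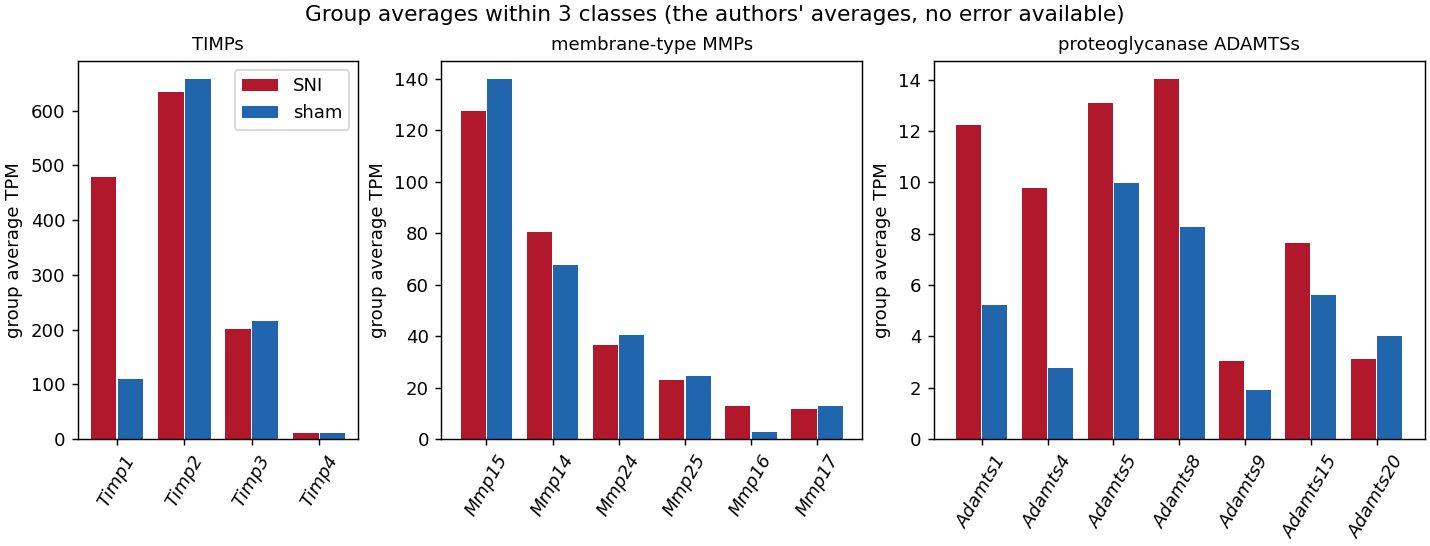
Group average TPM (bars from 0, the authors' averages, no error available) of the TIMPs, the membrane-type MMPs and the ADAMTSs known as proteoglycanases, with SNI in red left of sham in blue. Timp1 stands at 478 TPM in SNI and 111 TPM in sham beside Timp2 at 633 and 658 TPM, and Mmp16 and Adamts4 stand out within their classes.

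Of the 8 genes measured in each library, limma called 4 higher (Timp1, Mmp2, Adamts9 and Adam15) and 3 lower (Adam11, Adam22 and Adam23) at an adjusted p under 0.05, and Mmp17 was not called. This share is to be read against the table, in which 61.2% of the 1596 genes tested were called, 32.0% higher and 29.2% lower. The libraries of the 2 groups did not overlap for 7 of the 8 genes, against 66.7% of all genes tested.

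Mmp2 (Gene ID 81686), the gelatinase that cuts denatured collagen and type IV collagen of basement membranes, rose. It stood at 36.1, 35.2 and 36.2 TPM in the SNI libraries, against 25.3, 26.3 and 25.3 TPM in the sham libraries. Each group was tight, with coefficients of variation of 1.62% in SNI and 2.16% in sham, and the groups were apart. The log2 fold change was 0.47 ± 0.05 (SE; limma adjusted p = 3.8e-05). Mmp14, the membrane-type enzyme that activates proMMP2, averaged 80.4 TPM in SNI and 67.8 TPM in sham, with no test. Fibroblast markers, since fibroblasts are a known source of MMP2, did not move one way. Of 8, 3 were higher and 5 lower on average in SNI, and their part in the Mmp2 result was not tested. Apod rose, at 2968 TPM in SNI and 1925 TPM in sham (log2 fold change 0.62, limma adjusted p = 5.5e-07). Dpt fell, at 3.46 TPM in SNI and 7.58 TPM in sham (log2 fold change -0.95, limma adjusted p = 5.5e-05). Col1a2 was called higher and Dcn lower, Col1a1 averaged 145.05 and 146 TPM and was not called, and Pi16, in the authors' lower list, averaged 7.63 TPM in SNI and 16.1 TPM in sham.

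Mmp9 (Gene ID 81687), the other gelatinase and one stored by neutrophils, was far less abundant than Mmp2, at 4.43 TPM in SNI and 1.81 TPM in sham. It was in the authors' higher list and has no test here. Its average read counts were 121 in SNI and 49 in sham. Mmp8 (Gene ID 63849), the neutrophil collagenase, averaged 8.78 TPM in SNI and 4.23 TPM in sham and was in the same list. Of the 9 neutrophil markers beside them, 7 were higher and 2 lower on average in SNI. Csf3r averaged 6.94 TPM in SNI and 1.60 TPM in sham, and Lcn2, which is also made by other cells, 48.1 and 22.4 TPM. The granule genes Mpo (2.67 and 2.84 TPM) and Elane (2.48 and 2.66 TPM) were those that were lower.

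**Figure D2:**
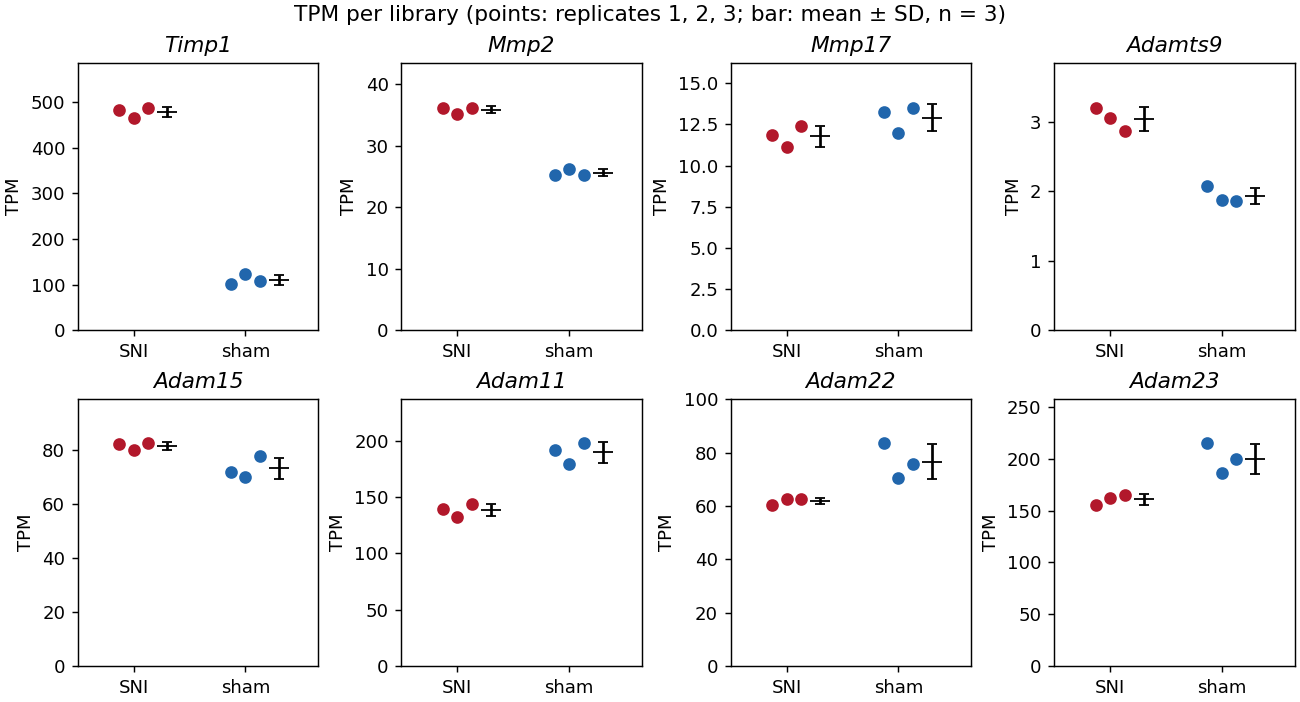
TPM in each library for the 8 genes with values per library, on linear axes from 0, with SNI in red left of sham in blue, points for replicates 1, 2 and 3 and a bar for the mean ± SD (n = 3). The groups overlap for Mmp17 alone, and the gap between groups is widest for Timp1, at 465 TPM and above in SNI and 122 TPM and below in sham.

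The remaining MMPs have group averages only. Ratios given from here on are (SNI average TPM + 1) divided by (sham average TPM + 1), a scale that understates differences of low genes, and carry no test. Of the 47 members with at least 1 TPM in one group, 9 had a ratio of at least 1.5 (19.1%), and 2 (4.26%) lay as far below 1. Over the 14944 genes counted in the same way, 7.13% were past 1.5-fold higher and 2.69% past 1.5-fold lower, 9.82% in all. The median ratio was 1.13 over the 47 members and 1.01 over all genes. The 9 higher genes were Timp1, Mmp19, Mmp16, Mmp3, Adamts4, Adamts1, Mmp9, Mmp8 and Adamts8, and the 2 lower ones Mmp13 and Adamts2. The authors' higher list held 8 of the 55 (14.5%), where it held 3.63% of all genes with averages, and their lower list held 2 (3.64%), Mmp13 and Adam33, where it held 0.695%. The authors' lists come from the same libraries, and their test is not given in the sources used here.

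Mmp19 (Gene ID 304608), a secreted MMP outside the classical subgroups, averaged 25.55 TPM in SNI and 5.77 TPM in sham, a ratio of 3.92. Of all genes counted, 0.549% had a ratio as high. Mmp16 (Gene ID 65205), a membrane-type MMP, averaged 13.1 TPM in SNI and 2.91 TPM in sham, a ratio of 3.60. It was alone in its class in being past 1.5-fold. Mmp15, the most abundant MMP, averaged 128 TPM in SNI and 140 TPM in sham, and Mmp24, known mainly from neurons, 36.5 and 40.3 TPM. Mmp25, anchored to the membrane by a lipid, averaged 22.9 TPM in SNI and 24.4 TPM in sham.

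Mmp17, a lipid-anchored enzyme too, was measured in each library, at 11.9, 11.1 and 12.4 TPM in SNI and 13.3, 11.96 and 13.5 TPM in sham. The groups overlapped, and the log2 fold change of -0.12 ± 0.07 (SE) was not called (limma adjusted p = 0.18). After quantile normalization it was -0.28 and called lower (limma adjusted p = 0.0041).

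Mmp3 (Gene ID 171045), stromelysin 1, which cuts many matrix proteins and activates other MMPs, was nearly undetected in sham. Its average TPM was 2.63 in SNI and 0.05 in sham. The sham value rests on 2 reads over the 3 libraries and the SNI value on about 112, a read ratio of 56.25 with an exact 95% interval of 15.1 to 468 that covers counting error only. Mmp3 is similar in sequence to Mmp10 of the same gene cluster, which can share reads with it. Mmp11, another stromelysin by name, averaged 7.16 TPM in SNI and 4.68 TPM in sham, a ratio of 1.44. Its gene span overlaps Chchd10, at 542 and 748 TPM, so its reads may be uncertain, and overlap of exons was not tested.

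Mmp13 (Gene ID 171052), a collagenase of cartilage and bone in particular, went the other way from the other MMPs past 1.5-fold, at 0.84 TPM in SNI and 4.51 TPM in sham. Its average read counts were 20 in SNI and 106 in sham. Of all genes counted, 0.12% had a ratio as low. The 2 collagenases thus differed in opposite directions on average. Mmp28 and Mmp23 had ratios of 1.36 and 1.15. Mmp21 was at the limit of detection, with 4 reads in SNI and 1 in sham over the libraries of a group. Mmp12, the macrophage elastase, was in the authors' higher list and has no group averages here, so it was not counted among the 55.

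**Figure D3:**
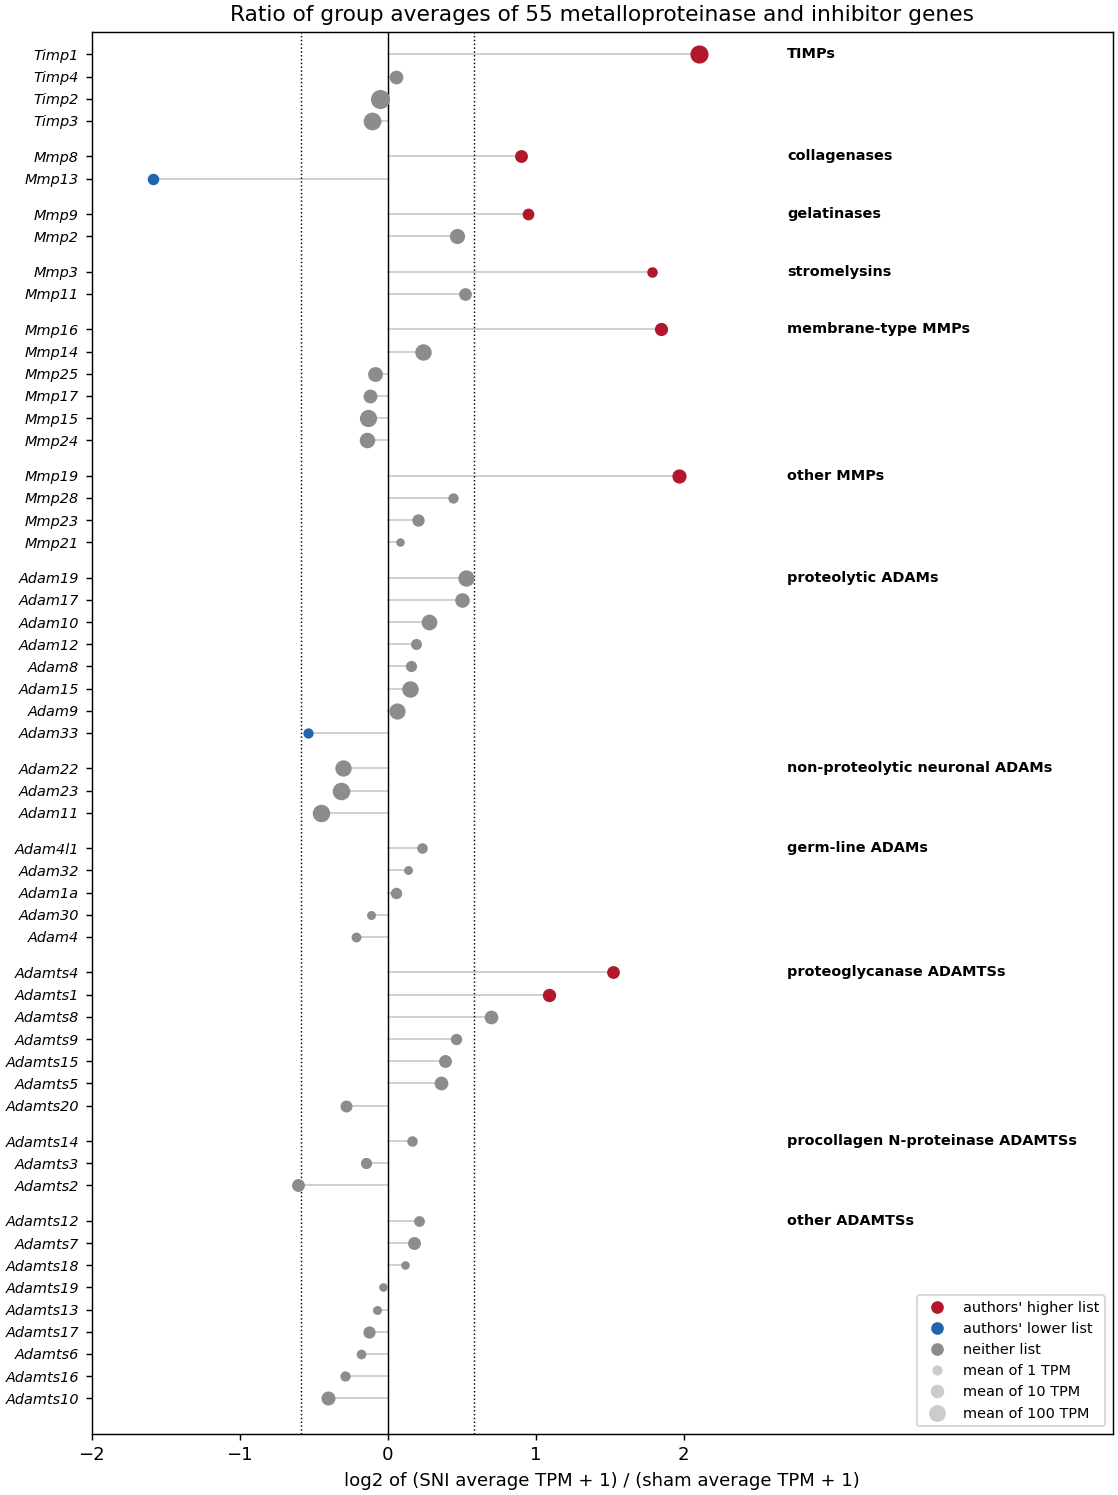
Log2 of the ratio of group averages (pseudocount 1) for all 55 genes by class, with red points in the authors' higher list, blue points in their lower list, point size for the mean TPM and dotted lines at 1.5-fold either way. The 3 ADAMs without catalytic site all lie left of 0, and 6 of the 7 proteoglycanase ADAMTSs lie right of it.

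Adam11, Adam22 and Adam23 have no catalytic site and are known as neuronal surface receptors of the LGI proteins. They were among the most abundant members, and all 3 fell, where limma called 29.2% of all genes tested lower. Adam11 (Gene ID 360638) stood at 139, 132 and 144 TPM in the SNI libraries, against 192, 180 and 198 TPM in the sham libraries, and the log2 fold change was -0.45 ± 0.05 (SE; limma adjusted p = 7.0e-05). The 3 SNI values all lay below the lowest sham value. Libraries of the 2 groups did not overlap for 66.7% of all genes tested.

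Adam23 (Gene ID 301460) stood at 155, 162 and 165 TPM in SNI and 215, 186 and 199 TPM in sham. The groups did not overlap, though the sham libraries were more spread, and the log2 fold change was -0.31 ± 0.06 (SE; limma adjusted p = 0.0014). Adam22 (Gene ID 57033), at the axon also a receptor for Schwann cell LGI4, stood at 60.4, 62.5 and 62.7 TPM in SNI and 83.5, 70.6 and 75.6 TPM in sham. Its log2 fold change was -0.30 ± 0.06 (SE; limma adjusted p = 0.0030). The 3 genes made up 54.0% of the summed ADAM level in SNI and 64.6% in sham.

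Of the 4 LGI ligands, Lgi3 was measured in each library and fell, at 134, 132 and 134 TPM in SNI and 214, 209 and 215 TPM in sham (log2 fold change -0.67, limma adjusted p = 9.3e-07). Lgi4 averaged 255 TPM in SNI and 207 TPM in sham, Lgi2 31.1 and 25.2 TPM and Lgi1, linked to epilepsy in humans, 59.8 and 66.1 TPM. Sensory neuron markers were mixed beside these genes. Of 10, 3 were higher and 7 lower on average in SNI, with 0 past 1.5-fold higher and 3 past it lower. Their median ratio was 0.78, where the ratios of Adam11, Adam22 and Adam23 were 0.73, 0.81 and 0.80. The part of neuronal RNA as a whole in the fall of the 3 ADAMs was not tested. Scn10a, a nociceptor sodium channel, fell (log2 fold change -0.37, limma adjusted p = 0.00053), while Scn9a (-0.03) and Calca (0.03) were not called (limma adjusted p = 0.69 and 0.52).

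Of the 8 proteolytic ADAMs, 7 had a higher average in SNI and 1, Adam33, a lower one, where 9920 of all 18696 genes had a higher and 8583 a lower average. None of the 8 was past 1.5-fold with the pseudocount of 1, beside 9.82% of all genes counted. Only 1 of the 8 was measured in each library. Adam15 (Gene ID 57025), which binds integrins, stood at 82.4, 79.9 and 82.5 TPM in SNI and 71.8, 70.2 and 77.7 TPM in sham. The groups were apart by a narrow margin, and the log2 fold change was 0.15 ± 0.05 (SE; limma adjusted p = 0.030). The call was lost without any one of SNI libraries 1, 2 and 3 or sham libraries 1 and 2, at limma adjusted p between 0.058 and 0.093, and kept without sham library 3.

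Adam17, the TNF-converting enzyme, averaged 23.4 TPM in SNI and 16.2 TPM in sham, a ratio of 1.42. Adam19, a sheddase of neuregulins, averaged 81.3 TPM in SNI and 55.9 TPM in sham, a ratio of 1.45, just under 1.5-fold. Adam10, which cuts Notch and the amyloid precursor protein, averaged 49.1 and 40.25 TPM and Adam9 61.9 and 59.1 TPM. Adam8, of leukocytes, and Adam12, known from muscle, averaged 2.35 and 2.09 TPM in SNI and 2.00 and 1.70 TPM in sham. Adam33 averaged 0.697 TPM in SNI and 1.46 TPM in sham, with 21 and 43.7 reads, and was in the authors' lower list. With a pseudocount of 0.1 it passed 1.5-fold lower.

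Of 8 partners of ADAM10 and ADAM17, 7 had at least 1 TPM and none was past 1.5-fold either way, beside 9.82% of all genes counted. Rhbdf2, which helps ADAM17 reach the surface, averaged 9.19 TPM in SNI and 6.79 TPM in sham. Of 15 shed membrane proteins counted, 4 were past 1.5-fold higher and 0 lower, beside 7.13% and 2.69% of all genes counted. None of the 4 was in the authors' lists. These were Tnfrsf1a, a TNF receptor, at 93.1 and 52.6 TPM, Cd44, a hyaluronan receptor, at 136.1 and 81.5 TPM, Il6r, at 6.36 and 3.44 TPM, and Tnfrsf1b, at 4.43 and 2.54 TPM. Both shed proteins tested, Nrg1 and Hbegf, fell with limma, where 29.2% of all genes tested were called lower. Nrg1, the axonal growth factor for Schwann cells, stood at 46.9, 50.03 and 50.65 TPM in SNI and 70.9, 64.1 and 66.4 TPM in sham (log2 fold change -0.44, limma adjusted p = 0.00013). Hbegf, a growth factor of the EGF family, had a log2 fold change of -0.24 (limma adjusted p = 0.034), and its call was lost without SNI library 1 or 3 or sham library 1 or 3, at limma adjusted p between 0.052 and 0.13.

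The 5 ADAMs known mainly from testis were low. Adam1a averaged 2.65 TPM in SNI and 2.51 TPM in sham and Adam4l1 1.60 and 1.21 TPM, and Adam4, Adam30 and Adam32 stayed under 1 TPM in both groups. Adam4 and Adam4l1 are similar copies that both lie inside Cox16 and can share reads.

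The proteoglycanase ADAMTSs had a summed TPM of 62.9 in SNI and 37.8 in sham, with no test of the sum. Of the 7, 6 had a higher average in SNI, beside 9920 of all 18696 genes, and the median ratio was 1.38, against 1.01 over all genes. Adamts9 (Gene ID 312566), which cuts versican, was the member measured in each library, and it rose. It stood at 3.20, 3.05 and 2.86 TPM in SNI and 2.07, 1.87 and 1.86 TPM in sham, with the groups apart. The log2 fold change was 0.46 ± 0.10 (SE; limma adjusted p = 0.0035). After quantile normalization it was 0.09 and not called (limma adjusted p = 0.40).

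Adamts4 (Gene ID 66015) and Adamts1 (Gene ID 79252), which cut aggrecan, brevican and versican, were in the authors' higher list. Adamts4 averaged 9.79 TPM in SNI and 2.75 TPM in sham, a ratio of 2.87. Adamts1 averaged 12.2 TPM in SNI and 5.21 TPM in sham, a ratio of 2.13. Adamts8 averaged 14.0 and 8.27 TPM, a ratio of 1.62 without a place in the lists. Adamts5, the main cartilage aggrecanase in mice, averaged 13.1 and 9.98 TPM and Adamts15 7.64 and 5.60 TPM. Adamts20 was the exception, at 3.13 TPM in SNI and 4.02 TPM in sham.

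A list of matrix proteins, holding collagens, laminins and proteoglycans that one or another of the 4 families can bind or cut, had 11 genes tested with limma. Of these, 4 rose (Vcan, Ncan, Fn1 and Col1a2) and 4 fell (Bcan, Tnc, Dcn and Col3a1), beside 32.0% called higher and 29.2% called lower over the 1596 genes tested. The calls of Col1a2, Col3a1 and Dcn were small and near the threshold (log2 fold changes of 0.30, -0.13 and -0.15, limma adjusted p = 0.047, 0.026 and 0.016). Col1a2 lost its call without any one library but sham library 3 (limma adjusted p between 0.076 and 0.13), Col3a1 without SNI library 1 or 2 or sham library 3 (0.080 to 0.10), and Dcn without SNI library 1 (0.065). Without sham library 2 the log2 fold change of Col1a2 was 0.16. With every library kept, Col1a2 missed the threshold under quantile normalization (limma adjusted p = 0.055), without the intensity trend (0.072) and with no filter (0.077). Col3a1 missed it with the replicate block (limma adjusted p = 0.051). Ncan, neurocan, stood at 10.2, 9.95 and 10.8 TPM in SNI and 5.76, 4.33 and 5.72 TPM in sham (log2 fold change 0.86, limma adjusted p = 8.1e-05). Bcan, brevican, stood at 46.2, 45.2 and 46.2 TPM in SNI and 73.55, 72.8 and 78.8 TPM in sham (log2 fold change -0.70, limma adjusted p = 3.0e-06). Vcan, versican, was in the authors' higher list at 3.35 and 1.72 TPM, with a log2 fold change of 0.66 that was 0.28 and not called after quantile normalization (limma adjusted p = 0.14), and Eln, elastin, in their lower list at 8.43 and 17.3 TPM.

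Of the 3 procollagen-trimming ADAMTSs, 1 was past 1.5-fold, lower, beside 2.69% of all genes counted. Adamts2, which removes the amino-terminal propeptide of fibrillar collagens, averaged 4.98 TPM in SNI and 8.09 TPM in sham, a ratio of 0.66. It was in neither list. Adamts3 averaged 2.02 and 2.35 TPM and Adamts14 1.49 and 1.22 TPM. Among the remaining 9 ADAMTSs, 3 averages were higher and 6 lower in SNI, beside 9920 and 8583 of all 18696 genes. Of these 9, 5 had at least 1 TPM in one group. None of the 5 was past 1.5-fold, beside 9.82% of all genes counted. The most abundant were Adamts10, known to bind fibrillin, at 11.7 TPM in SNI and 15.8 TPM in sham, Adamts7 at 7.04 and 6.12 TPM and Adamts17 at 4.04 and 4.50 TPM. Adamts6, Adamts13, Adamts18 and Adamts19 stayed under 1 TPM in both groups.

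**Figure D4:**
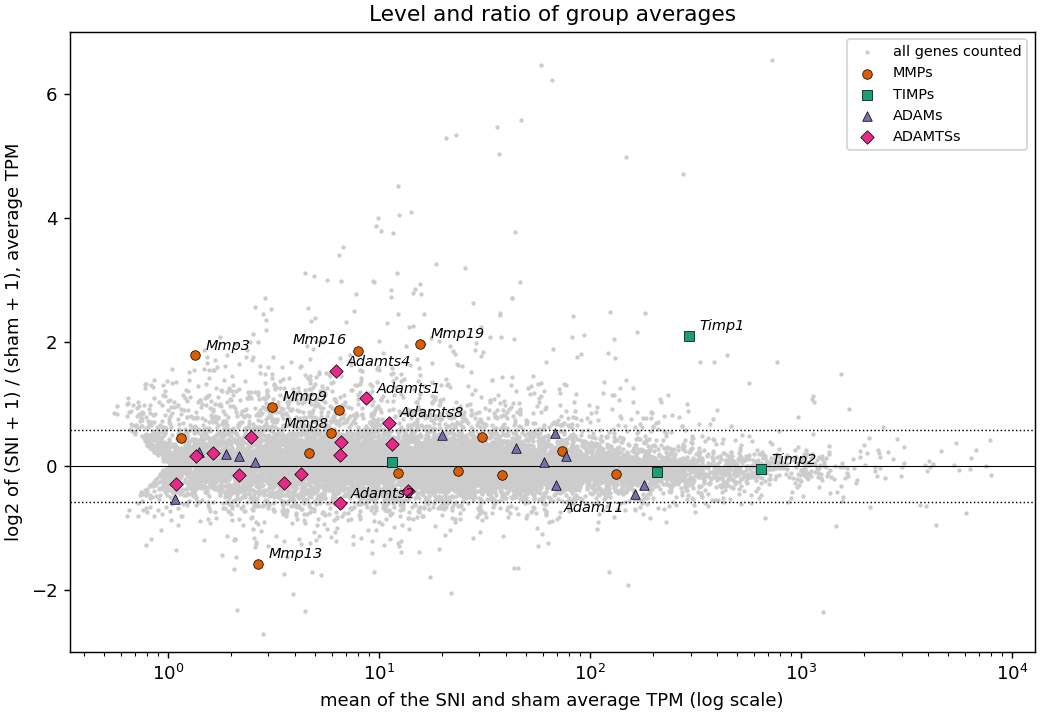
Mean of the 2 group averages in TPM (log axis) against the log2 ratio of group averages with a pseudocount of 1, for 14944 genes in grey and the 47 members counted by family, with dotted lines at 1.5-fold. Timp1 is the only member above 100 TPM on average that is past 1.5-fold, and the other members past it lie under 20 TPM.

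Outside the 4 families, inhibitors of broader range and the plasminogen system, which activates proMMPs, were examined as lists. A2m, alpha-2-macroglobulin, which traps proteinases of all classes, stood at 75.6, 75.8 and 74.0 TPM in SNI and 10.6, 10.5 and 10.7 TPM in sham (log2 fold change 2.71, limma adjusted p = 6.9e-10). Of the 10 genes in its list, 3 were tested, with A2m up, Papln, an ADAMTS-like protein, down (log2 fold change -0.31, limma adjusted p = 0.0048) and Cst3 not called. Adamtsl2 was in the authors' lower list at 0.917 and 1.89 TPM. Reck, a membrane-anchored inhibitor of MMPs, averaged 21.5 TPM in SNI and 23.5 TPM in sham. In the plasminogen list, Serpinb2, an inhibitor of plasminogen activators, was in the authors' higher list at 3.47 TPM in SNI and 0.06 TPM in sham, with an average of only 1 read in sham. Plau, urokinase, averaged 9.003 and 4.62 TPM, while Plat, the tissue-type activator, was not called (log2 fold change 0.04, limma adjusted p = 0.37), and Serpine2 fell (log2 fold change -0.23, limma adjusted p = 0.0028). Of 4 other zinc metalloproteinases tested, 3 rose, where 32.0% of all genes tested were called higher. They were Anpep, Bmp1 and Ace, with log2 fold changes of 0.43, 0.30 and 0.28 (limma adjusted p = 0.0029, 0.0033 and 0.015). After quantile normalization Anpep was not called (0.16, limma adjusted p = 0.11) and Ace stood at -0.0016 (limma adjusted p = 0.99). The Ace call was also lost without SNI library 2 (limma adjusted p = 0.066). Mme, neprilysin, was not called (log2 fold change -0.23, limma adjusted p = 0.051). Ecel1, a neuronal relative of endothelin-converting enzymes, was in the authors' higher list at 26.9 and 2.86 TPM.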

How the data were processed

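Per the labels' protocols, RNA from frozen ganglia was made into Illumina libraries; they name both Trizol and a mirVana kit, and both TruSeq and NEBNext Ultra kits. Aligner, counter, build, annotation, strand setting and the authors' test: not given in the sources used here. Per the file headers, the deposited values are TPM of single libraries (1637 genes) and group averages of TPM and of read counts (18696 genes), and 699 genes are listed as higher and 136 as lower. The read counts, as deposited by the authors, are estimated counts averaged over 3 libraries, and multiplied by 3 they were whole for 64.8% of genes in SNI and 65.4% in sham (tolerance 0.001). Group totals of 18.591 M in SNI and 18.590 M in sham were nearly equal, and scaling to a common total cannot be told apart from equal depth. The deposited lists are other content, gene names with KEGG pathway names per the file headers, without p-values. Columns named control were taken as sham libraries.

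TPM per library (25.8% to 27.1% of each library's total) were compared as log2(TPM + 1) with limma 3.58.1 in R 4.3.3, fitting group alone with an intensity trend. Benjamini-Hochberg adjustment ran over 1596 genes averaging 1 TPM or more (41 left out). That table is a selection by the authors of unstated rule. Permuting 3 against 3 libraries gives no two-sided p below 0.1 and was not done. On simulated data of 1596 genes with 200 changed, the fit recovered 94% of changes of 0.5 and 99% of changes of 1 on the log2 scale. The simulation had independent normal noise and fewer changed genes than the 976 called in the real data. Recovery does not speak to false calls. Averages were compared as ratios with a pseudocount of 1. Promoters came from RefSeq GRCr8, and overlapping genes from its gene table, which held all 55 genes. Members, lists and motifs were chosen with earlier results of these data known. Genes named are all members with values per library, in the authors' lists or past 1.5-fold, the 3 most abundant of each class, and from each other list the called or listed genes with the largest change, with a few others named for their known role after their values were seen. Some items of the lists are not reported here. Python 3.11.15 with pandas 2.3.3, scipy 1.17.1 and matplotlib 3.10.9 was used.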

Additional observations from a re-analysis of the deposited data

How the results depend on the processing

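Timp1, Mmp2, Adam11, Adam22 and Adam23 kept their direction and their limma call under all 12 alternatives (pseudocount 0.1, no filter, a mean of at least 5 TPM, quantile normalization, no intensity trend, a replicate block, and each of the 6 libraries left out). The number of the 8 genes called higher lay between 3 and 4 and the number called lower between 3 and 4 under these alternatives. With a mean of at least 5 TPM only 7 were tested, as Adamts9 was left out by the filter. Without one library, 3 to 4 were called higher and 3 lower. Adam15 lost its call without 5 of the 6 single libraries, Adamts9 after quantile normalization, and Mmp17 gained one there; the cause was not tested. Quantile normalization also moved the share of higher genes among all calls to 39.9%, with 403 higher and 608 lower, against 52.3%, with 510 and 466. Deviations from the group mean had correlations of -0.09, -0.06 and 0.19 between samples of the same number, for numbers 1 to 3. Between samples of unlike numbers they lay between -0.29 and 0.29. With 3 libraries a group these values cannot tell whether the numbers pair animals, and the labels do not say. The replicate block called the same 4 higher and 3 lower. Of the counts of averages, 2-fold in place of 1.5-fold left 6 members higher and 1, Mmp13, lower. With a pseudocount of 0.1, 12 were higher, with Mmp11, Mmp28 and Adamts9 added, and 3 lower, with Adam33 added. Members outside the per-library table have no replicate error, and those under about 10 reads cannot be compared.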

Other observations

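Reads per unit of TPM, which follow the effective transcript length behind a gene, were lower in SNI than in sham for Mmp16. The ratio of SNI to sham reads per TPM was 0.85 for Mmp16. Over the 12911 genes with at least 50 reads on average in both groups its median was 1.01, with a 5th percentile of 0.989 and a 95th percentile of 1.03, and 0.0697% of them lay as low as Mmp16. The ratio of average reads for Mmp16 was accordingly smaller than that of average TPM (3.82 against 4.49, both without a pseudocount). The files do not give transcripts, so which ones were counted was not tested.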
